A study of Mus musculus with 6 samples.

Results

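Tail tissue fibroblasts that had been exposed to tamoxifen for 24 h and then kept in tamoxifen-free medium (the group titled LH2 cKO_no.2) were compared with fibroblasts of the same genotype that stood in medium without tamoxifen throughout (the control group). The comparison takes 4 of the series' 6 arrays, 2 per group, chosen by their titles. It covers 21212 of 45616 genes on the array, those whose probe passed the scanner software's test of being well above background on both arrays of control or both of no.2. Of the 21212 genes, 17917 were well above background on all 4 arrays, 2262 passed through the no.2 arrays without both control arrays, and 1033 passed through the control arrays without both no.2 arrays.

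All cells carried LH2F/F, a conditional allele of lysyl hydroxylase 2, with a CAG-Cre transgene on the C57BL/6 background, and the labels give the genotype LH2 cKO for the controls too. CAG is a promoter that is active in most cell types, so that recombination is not limited to fibroblasts, and tamoxifen is the agent that switches on an inducible Cre. The other 2 arrays of the series (LH2 cKO_no.1) hold cells that stayed in tamoxifen-containing medium after the same 24 h. Tails were skinned, minced and cultured on collagen I, and the RNA of each sample went, Cy3-labelled, onto 1 Agilent array. No group had tamoxifen with an intact gene, so the deletion, tamoxifen itself and time in culture cannot be told apart. Whether a group's arrays stem from different cultures or animals is not stated. The p-values therefore rest on how far these samples differ, and that spread may be technical. File names carry 0 h for both controls. They carry 24 h for the first and 48 h for the second array of both no.2 and no.1, where the labels give 24 h for all of these.

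Lysyl hydroxylases add hydroxyl groups to lysines of collagen inside the endoplasmic reticulum. LH2, the product of Plod2, acts on lysines in the telopeptides, and that step sets which crosslinks lysyl oxidases later form between collagen molecules outside the cell. Cultured skin and tail fibroblasts make fibrillar collagen in quantity, and stiff, hydroxylysine-rich crosslinks are a known feature of fibrotic tissue.

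Each array was scaled to the 75th percentile of its own signals, which lay at 34.2 and 33.7 for control and at 55.1 and 56.9 for no.2. On each array 44.2% to 48.6% of 56605 probes passed the background test. The control arrays nearly coincided (robust SD of their log2 difference 0.161, r = 0.994 across 21212 genes), whereas the no.2 arrays differed more (0.460, r = 0.983). Each no.2 array lay closer to the second no.1 array (robust SD 0.422 for both, r = 0.990 and 0.983) than to the other no.2 array. Slide row 1 held the controls and slide row 2 the no.2 arrays, and thus an effect of the row cannot be told apart from one of the group. Precision is limited by how few arrays there are. Of 10 fibroblast markers, 9 were well above background on all 4 arrays, and Lum was so on 0 of them.

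Treated cells differed from control cells over a broad part of the genes measured. Proliferation and cholesterol synthesis genes stood higher in no.2, while chemokines, glutathione enzymes, matrix protease inhibitors and part of the collagen-crosslinking set stood lower. Of 21212 genes, 6793 (32%) passed an adjusted p of 0.05 in limma, 2855 higher (13.5%) and 3938 lower (18.6%). A change of at least 2-fold was found for 2027 of the higher and 2728 of the lower calls. Among genes measured on all 4 arrays, 2007 were called higher (11.2%) and 3172 lower (17.7%), and 8 rose and 46 fell by at least 16-fold. Counts of called genes in a list below are to be read against the shares of 11.2% and 17.7%. The groups did not overlap for 76.9% of the tested genes. A fit with both control arrays averaged into 1 sample called 1607 genes (7.58%), 784 higher (3.7%) and 823 lower (3.88%), and 1580 of the 1607 belong to the 6793. The number dropped to 2065 without the first control array, to 1705 without the second, and to 3464 without no.2 replicate 2.

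The direction of a change depended on what the arrays were scaled to. E1A probes read a spike-in RNA that is added in a fixed amount when RNA is labelled, and 6 of the 10 E1A probes, each with at least 35 spots, were well above background on every array. Relative to them, the 75th percentile of the first and second no.2 arrays was 1.99 and 2.99 times the control mean. Over the tested genes the median log2 fold change was -0.11, and 1.18 with E1A scaling. With E1A scaling 14802 genes passed (69.8%), 14262 higher (67.2%) and 540 lower (2.55%). Among genes measured on all 4 arrays it called 67.8% higher and 1.65% lower, and E1A counts of a list below are to be read against these shares. Quantile normalization called 3716 higher and 3315 lower, and scaling to the median probe, which moved the median gene to 0.21, called 4914 and 2312. E1A scaling adds the same positive amount to every log2 fold change, so no higher call could turn below 0. With E1A, all 2855 higher calls were called higher too and 540 of the 3938 lower calls remained lower, while 2051 of the lower calls turned above 0 and 2 of these were called higher. Changes below are relative to the 75th percentile unless E1A is named, and so compare a gene with the rest of its own array. Fewer RNA molecules per cell and fewer cells of a type cannot be told apart in bulk RNA.

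**Figure D1:**
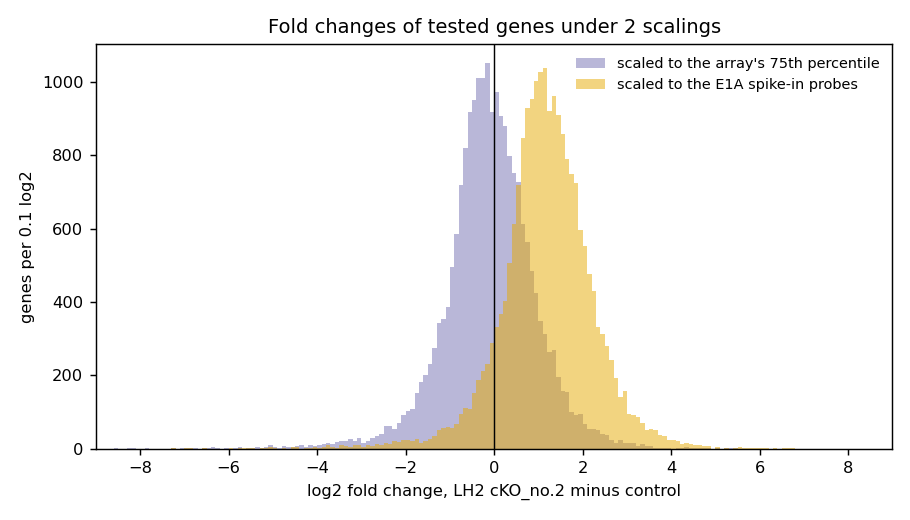
Histogram of the log2 fold change (LH2 cKO_no.2 minus control) of the 21212 tested genes in bins of 0.1, with each array scaled to its 75th percentile (purple) or to its E1A spike-in probes (yellow). The medians are -0.11 and 1.18, so that most genes on the lower side with the first scaling lie above 0 with the second.

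The lysyl hydroxylases and the lysyl oxidase gene Lox stood lower in no.2 cells, with Plod2 the lowest of its family. The Plod2 level, as log2 signal over the array's 75th percentile, was 0.30 and 0.052 in control cells and -2.05 and -2.73 in no.2 cells. Both no.2 arrays lay below both controls. Plod2 fell 5.92-fold (log2 fold change -2.57, SE 0.34, adjusted p = 0.00563), and by 1.28 on the log2 scale relative to E1A (adjusted p = 0.011). With normexp background correction, which compresses dim signals, the Plod2 log2 fold change was -0.83 (adjusted p = 0.00809). It passed with the control arrays averaged (adjusted p = 0.028) but not when that was combined with E1A scaling (adjusted p = 0.0573). The place of the single Plod2 probe within the gene was not analysed here, and whether it lies in the floxed stretch is unknown, so the fall does not test the deletion.

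Plod3, which also glucosylates hydroxylysine, was at 5.17 and 5.27 in control and at 4.06 and 3.91 in no.2, and the groups did not overlap. It fell with a log2 fold change of -1.23 (SE 0.18, adjusted p = 0.00771), and a second Plod3 probe gave -0.70. Plod1, the hydroxylase of helical lysines, was at 3.14 and 3.21 against 2.53 and 2.43 (log2 fold change -0.69, SE 0.20, adjusted p = 0.0445). Averaging the controls ended both calls (adjusted p = 0.0596 for Plod3 and 0.208 for Plod1), and relative to E1A their log2 fold changes turned to 0.051 and 0.59. Lox, which starts crosslinking by oxidising lysine and hydroxylysine, read 6.90 and 6.83 in control and 4.11 and 4.92 in no.2. It fell 5.09-fold (log2 fold change -2.35, SE 0.29, adjusted p = 0.00459), and stood at -1.06 relative to E1A without passing (adjusted p = 0.0647). P3h4, a partner of the lysyl hydroxylase complex in the endoplasmic reticulum, fell by 1.24 on the log2 scale (SE 0.18, adjusted p = 0.00731) and stood at 0.044 relative to E1A.

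Of 25 genes of lysyl hydroxylation, prolyl hydroxylation and crosslinking, 23 were measured on all 4 arrays. Among these 23, 6 fell and 0 rose, with a median log2 fold change of -0.44 against -0.15 over the 17917 genes so measured. Loxl1 completed the 6 (log2 fold change -0.70, adjusted p = 0.0372) and stood at 0.58 relative to E1A. The collagen chaperone Serpinh1 (-0.33, adjusted p = 0.263), the prolyl hydroxylase P4ha1 (-0.18, adjusted p = 0.504) and Loxl2 (-0.086, adjusted p = 0.798) did not pass. P4ha2, another prolyl hydroxylase, did not pass either, yet stood lower than every called member but Plod2 and Lox (-0.44 relative to E1A). After averaging the controls 2 of the 6 passed, Plod2 and Lox. Leaving out control replicate 1, control replicate 2, no.2 replicate 1 and no.2 replicate 2, in that order, gave 3, 2, 5 and 4 members called lower. With E1A scaling 14 members were called higher and 1, Plod2, lower, against 67.8% and 1.65% of all genes so measured.

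**Figure D2:**
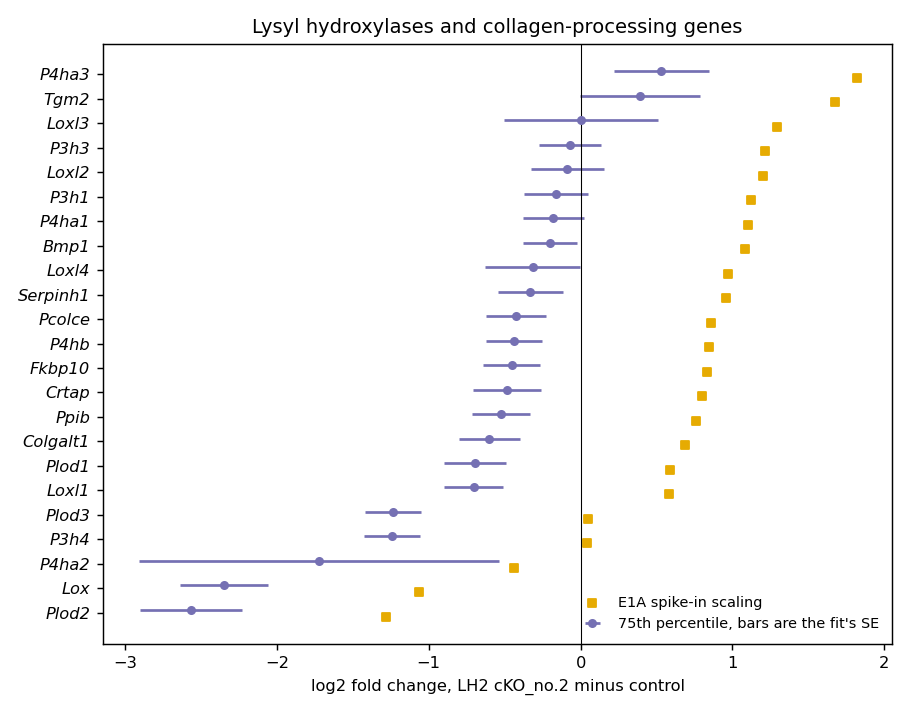
Log2 fold change (LH2 cKO_no.2 minus control) of the 23 lysyl hydroxylase, prolyl hydroxylase and crosslinking genes measured on all 4 arrays, scaled to the 75th percentile with the fit's SE as bars (purple circles) or to E1A (yellow squares). Plod2 (-2.57) and Lox (-2.35) lie lowest with the first scaling, and relative to E1A 3 genes lie below 0, at -1.28 for Plod2, -1.06 for Lox and -0.44 for P4ha2.

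Genes of the main fibrillar collagens did not pass the test, apart from Col11a1. Col1a1 was at 7.48 and 7.52 in control and 7.77 and 7.72 in no.2 cells (log2 fold change 0.25, SE 0.18, adjusted p = 0.318), and Col1a2 had a log2 fold change of 0.10 (SE 0.20, adjusted p = 0.707). Col3a1 read 5.20 and 5.27 in control, and its no.2 arrays lay on either side of these at 4.86 and 6.49. Col11a1, a minor fibrillar collagen that nucleates fibrils in cartilage, read -1.63 and -1.87 in control and 0.90 and 2.74 in no.2, above control on both arrays. It rose 11.9-fold (log2 fold change 3.58, SE 0.56, adjusted p = 0.00861). Among 13 fibrillar and fibril-associated collagens measured on all 4 arrays it was the 1 called, and the list's median was 0.10. Relative to E1A 8 of the 13 were called higher, against 67.8% of all genes measured on all 4 arrays. Of 10 network, basement membrane and other collagens, Col6a3 (1.00, SE 0.24, adjusted p = 0.0254) and Col4a6 (1.05, SE 0.22, adjusted p = 0.0172) rose, and neither passed with the control arrays averaged. A second Col6a3 probe gave -0.24, and the mean over both gave 0.38 and no call.

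Small leucine-rich proteoglycans, which bind collagen fibrils and set their diameter, stood lower. Prelp read 4.79 and 4.77 in control and -1.99 and 0.82 in no.2. Both no.2 arrays lay far below control, and they differed from each other by more than the fit's SE. Prelp fell 41.2-fold (log2 fold change -5.36, SE 0.82, adjusted p = 0.00814). Of 7 members measured on all 4 arrays 4 fell and 0 rose, the others being Fmod (-2.94, SE 0.69), Dcn (-2.29, SE 0.43) and Podnl1 (-1.35, SE 0.29). Bgn, biglycan, was at 0.59 (adjusted p = 0.128). The median was -1.59, and relative to E1A it was -0.31, with 1 member called lower and 2 higher. Averaging the control arrays left 1 call (Prelp), as did leaving out either control array, against 4 lower and 1 higher without no.2 replicate 1 and 3 lower without no.2 replicate 2.

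The largest rises were of genes from unrelated families. Klra4 and Klra16 code for Ly49 receptors, known from natural killer cells, and near-identical family members may be read by the same probes. Klra4 levels were -1.52 and -1.47 in control and 3.82 and 4.03 in no.2, and it rose 43.0-fold (log2 fold change 5.42, SE 0.33, adjusted p = 0.000611). Klra16 rose by 4.87 (SE 0.34). Klra7, of the same family, was measured on each no.2 array and on 0 control arrays, and was at least 19.8-fold higher (adjusted p = 0.00398). Ptprc, which marks leukocytes, was not well above background on any of the 4 arrays.

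Msln, mesothelin, a surface protein of mesothelial cells, read -1.71 and -1.13 in control and 3.63 and 3.65 in no.2 cells (log2 fold change 5.06, SE 0.40, adjusted p = 0.00143). Ankrd1, a cardiac and muscle ankyrin repeat protein and a target of the YAP coactivator, was at -1.35 and -1.24 against 2.88 and 3.26 (4.36, SE 0.33, adjusted p = 0.00126). In each of these genes the no.2 arrays lay close together and well above control. The transcription factor gene Meox1 (3.92, SE 0.21), the amino acid transporter gene Slc38a4 (3.40, SE 0.28), Lmo7 (3.37, SE 0.26), the carbonyl reductase gene Cbr2 (3.32, SE 0.30; 1.94 from its other probe) and Mgp, an inhibitor of calcification (3.38, SE 0.27), also rose, and each passed with the control arrays averaged. For Lmo7, the other probes, not above background on all 4 arrays, gave 0.86 and 1.81. The size of a rise from a dim control level depended on the background correction. With normexp the log2 fold change was 3.55 for Klra4, 2.99 for Msln and 1.82 for Meox1. Mgp, brighter in control, went the other way, to 3.70.

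Some of the largest rises were uneven between the no.2 arrays. Cdkn1c, the CDK inhibitor p57, was at 0.24 and 0.43 in control and at 3.66 and 6.45 in no.2 cells (log2 fold change 4.72, SE 0.96, adjusted p = 0.0168). Sfrp2, a secreted Wnt antagonist, was at -0.89 and -0.86 in control and at 1.1 and 3.78 in no.2 (3.32, SE 0.89, adjusted p = 0.0351). Nrep was at 0.93 and 1.19 against 3.74 and 5.24 (3.43, SE 0.70, adjusted p = 0.0169). In all 3 genes the second no.2 array was the higher. With the control arrays averaged the calls were lost (adjusted p = 0.0579, 0.104 and 0.0596), as was that of Cdkn1c without control replicate 2 (adjusted p = 0.0551), and without no.2 replicate 2 the log2 fold change was 3.33 for Cdkn1c (adjusted p = 0.0616) and 1.98 for Sfrp2 (adjusted p = 0.113).

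The largest falls included secreted immune factors. Rarres2, the precursor of the chemoattractant chemerin, was at 5.24 and 5.32 in control and -1.62 and -1.99 in no.2, and it fell 136-fold (log2 fold change -7.08, SE 0.36, adjusted p = 0.000492). Its no.2 signals were dim, and with normexp background correction the log2 fold change was -4.57. Ccl8, a monocyte chemokine, was at 8.16 and 8.25 against 0.89 and 2.69 (-6.42, SE 0.60, adjusted p = 0.00219). Serping1, the C1 inhibitor that restrains complement, was at 4.98 on both control arrays and at -2.45 and -0.37 in no.2 (-6.39, SE 0.61, adjusted p = 0.00238). Every no.2 value of these genes lay several log2 units below control. H2-Ab1, an MHC class II chain, fell by 5.76 (SE 0.26, adjusted p = 0.000333).

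Gngt2, a G protein gamma subunit, had the largest fall of the genes measured on all 4 arrays, from 5.90 and 6.10 to -1.66 and -0.79 (log2 fold change -7.23, SE 0.48, adjusted p = 0.000821), and its second probe gave -7.39. Ndufa4l2, a hypoxia-responsive protein of mitochondria, fell by 6.35 (SE 0.71), Gsta4, a glutathione transferase for lipid aldehydes, by 5.88 (SE 0.46), and Adamts2, the protease that removes the amino-terminal propeptide of procollagen, by 5.78 (SE 0.40). The complement gene C2 (-6.38, SE 0.75), described with its pathway, and Parm1, Hspb7, Crct1, Gda and Anxa8, from -6.30 for Parm1 to -5.16 for Anxa8, were among the 15 with Prelp. All 15 passed with the control arrays averaged. E1A scaling adds the same amount to every log2 fold change, so falls of this size stay falls, from -3.88 for Anxa8 to -5.94 for Gngt2. With normexp the 15 falls were smaller, from -2.49 for Gda to -5.56 for Ccl8.

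**Figure D3:**
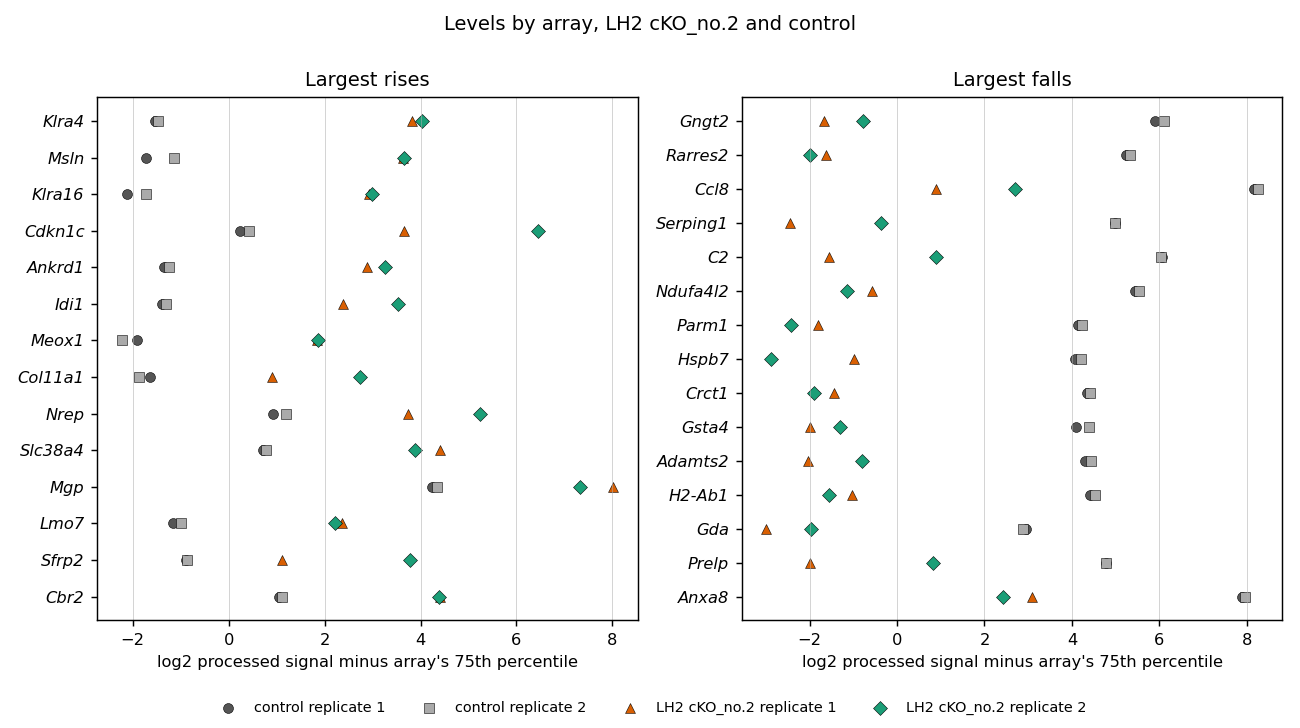
Level on each array (log2 signal over the 75th percentile of that array) of 14 of the 15 named genes with the largest rise and the 15 with the largest fall in LH2 cKO_no.2. Grey circles and squares are the 2 control arrays and orange triangles and green diamonds the 2 no.2 arrays. The genes were chosen among those whose groups do not overlap. The no.2 arrays lie furthest apart for Cdkn1c (3.66 and 6.45), Sfrp2 (1.1 and 3.78) and Prelp (-1.99 and 0.82).

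Genes measured in 1 group have only a bound. Among the tested genes, 696 were measured in no.2 cells and on 0 control arrays and 434 the reverse, and more probes were above background on the no.2 arrays in all. Among those called, Bex1 was at least 12.5-fold higher, the odd-skipped factor Osr2 at least 12.3-fold and the proteoglycan Optc at least 9.79-fold. Averaging the controls ended the Osr2 call (adjusted p = 0.086). Aldh1a3, an enzyme that makes retinoic acid, was at least 148-fold lower, Pkd1l2 at least 60.5-fold, Ppef1 at least 35.3-fold and Igfbp2, an IGF-binding protein, at least 32.8-fold. The bounds were computed with the 75th percentile alone.

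Genes of the cell cycle and mitosis were higher in no.2 cells almost throughout the list. Their products drive entry into mitosis (cyclins and CDK1), build the spindle and kinetochores, and complete cytokinesis. Of 56 listed genes 51 were measured on all 4 arrays, and 42 of these rose and 0 fell, against 11.2% and 17.7% of all genes so measured. The median log2 fold change was 1.55, with 1.77 on the first no.2 array and 1.25 on the second. Relative to E1A 50 of the 51 were called higher, with a median of 2.84 against 1.14 over all genes so measured, of which 67.8% were called higher and 1.65% lower.

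Ccna2, cyclin A2, read 0.78 and 0.88 in control and 4.02 and 3.63 in no.2. It rose 7.97-fold (log2 fold change 3.0, SE 0.39, adjusted p = 0.00552). Kif23, a kinesin of the midbody, read -2.05 and -1.62 against 1.17 and 1.03 (2.93, SE 0.31, adjusted p = 0.00312), and its other probe gave 1.69. With normexp the Kif23 log2 fold change was 1.07. On both genes every no.2 array stood above every control. Bub1b, a spindle checkpoint kinase (2.46, SE 0.23), Foxm1, the transcription factor of the mitotic programme (2.42, SE 0.29), Top2a (2.22, SE 0.23), the proliferation marker Mki67 (2.05, SE 0.34) and Cdk1 (1.63, SE 0.34) rose as well. The genes of the G1 phase behaved otherwise. Ccnd1 (0.17), Ccnd2 (-0.21), Ccnd3 (-0.39), Ccne1 (-0.43) and E2f1 (-0.67) did not pass. After averaging the controls, 13 of the 51 passed, all higher (background 1.78% higher), among them Ccna2, Kif23, Bub1b, Foxm1, Top2a and Mki67. Leaving out control replicate 1, control replicate 2, no.2 replicate 1 and no.2 replicate 2 in that order gave 15, 13, 26 and 27 called higher, with 1 called lower without no.2 replicate 1.

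DNA replication genes moved less. Of 44 measured on all 4 arrays, 22 rose and 0 fell, with a median of 1.13, and 43 had a log2 fold change above 0. Gins1, a subunit of the replicative helicase, read -0.94 and -0.70 in control and 1.44 and 0.77 in no.2 (1.93, SE 0.33, adjusted p = 0.0109). The origin recognition subunit Orc1 (1.92, SE 0.32), the maintenance methylation factor Uhrf1 (1.82, SE 0.27) and Mcm10 (1.78, SE 0.29) followed. The first no.2 array stood higher than the second, with list medians of 1.28 and 0.81. Averaging the control arrays left 6 calls, and leaving out the same arrays in the same order gave 8, 6, 17 and 25.

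CDK inhibitors, which hold the cycle back, split by gene. Of 8 measured, 4 rose and 3 fell. Cdkn1b, p27, rose from 1.53 and 1.48 to 3.01 and 3.38 (1.69, SE 0.25, adjusted p = 0.00731), and Cdkn3 (1.80, SE 0.32) and Cdkn2c (1.38, SE 0.30) rose besides Cdkn1c. Cdkn2a, the senescence-linked locus of p16 and p19ARF, fell from 7.86 and 7.95 to 5.84 and 6.44 (-1.76, SE 0.30, adjusted p = 0.0105), next to Cdkn2b (-1.89, SE 0.35) and Cdkn1a, p21 (-0.93, SE 0.21, adjusted p = 0.0224). With the control arrays averaged Cdkn1b was the 1 that passed. Relative to E1A the falls did not pass, and Cdkn1a stood at 0.35.

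Promoter letters are shown for genes of the mitosis and cholesterol lists, the 2 with the highest medians. Sequences are from RefSeq promoters of assembly GRCm38.p6, 250 bases before to 50 bases after the start site, and 39 of the 46 tested mitotic genes called higher had an entry. The cell cycle genes homology region (CHR, searched as TTTGAA on both strands) is the element bound by the MuvB complexes that repress or activate mitotic genes, and the CCAAT box (CCAAT on both strands, read as ATTGG on the other) binds NF-Y. TTTGAA stood in a promoter of 27 of the 39 genes (29 of 42 promoters, 69.0%) and in 17.9% of 32851 promoters in all. CCAAT stood in 29 of the 39 genes (76.2% of their promoters, against 37.4% of all). Of 18 DNA replication genes called higher and found in the table, 3 held TTTGAA. A match is a description of letters and no site of binding. Kif23 (chr9:61946750-61947049, minus strand) and Bub1b (chr2:118597961-118598260, plus strand) are shown 5′ to 3′ with TTTGAA and CCAAT or ATTGG in capitals. In Kif23 the CCAAT box starts 7 bases before the start site and the CHR letters 2 bases after it.
Kif23: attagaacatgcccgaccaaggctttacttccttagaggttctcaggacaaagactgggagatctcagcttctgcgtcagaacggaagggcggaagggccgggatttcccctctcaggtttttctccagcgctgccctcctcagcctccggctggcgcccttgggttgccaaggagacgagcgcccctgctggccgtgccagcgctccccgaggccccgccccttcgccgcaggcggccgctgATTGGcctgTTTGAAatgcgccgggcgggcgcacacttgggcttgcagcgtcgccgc
Bub1b: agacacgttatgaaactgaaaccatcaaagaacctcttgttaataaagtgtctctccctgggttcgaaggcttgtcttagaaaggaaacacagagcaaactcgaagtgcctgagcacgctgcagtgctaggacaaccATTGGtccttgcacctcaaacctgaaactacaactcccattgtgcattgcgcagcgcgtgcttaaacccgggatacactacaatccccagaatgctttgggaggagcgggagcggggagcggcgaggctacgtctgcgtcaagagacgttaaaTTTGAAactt

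Cholesterol synthesis and uptake genes had the highest median of the 44 lists. Cells make cholesterol from acetyl-CoA through mevalonate, isoprenoids and squalene, and the SREBP2 factor, released when sterols are scarce, switches on the pathway. Of 24 members measured on all 4 arrays 18 rose and 1 fell, with a median log2 fold change of 1.98. The second no.2 array stood higher than the first here, with list medians of 2.44 and 1.53, the reverse of the replication genes. After averaging the controls 12 members were called, all higher, and relative to E1A 22 were called higher, with a median of 3.26. Leaving out the 4 arrays in turn gave 12, 14, 20 and 16 called higher.

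Hmgcs1, which makes HMG-CoA, read 2.00 and 1.95 in control and 4.62 and 5.85 in no.2, and rose 9.57-fold (3.26, SE 0.39, adjusted p = 0.00434). Idi1, which isomerises the isoprenoid unit, read -1.39 and -1.30 against 2.39 and 3.53 (4.30, SE 0.37, adjusted p = 0.00183). Both genes were above control on each no.2 array and higher on the second. Further along the pathway, Fdps (2.28, SE 0.23), Fdft1 (2.24, SE 0.30), Sqle, the squalene epoxidase (2.81, SE 0.33), Lss (2.18, SE 0.33), Cyp51 (2.81, SE 0.34), Msmo1 (2.94, SE 0.41) and Sc5d (2.05, SE 0.30) rose. Srebf2 itself rose (1.31, SE 0.19, adjusted p = 0.00723), and its escort Scap was the 1 member that fell (-0.93; 0.35 relative to E1A). Dhcr7 (1.30, adjusted p = 0.0505) and Mvk (0.39) did not pass.

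Of the cholesterol genes called higher, 12 had a promoter entry. CCAAT stood in a promoter of all 12 (12 of 13 promoters). The sterol regulatory element, searched as TCACNCCA on both strands, stood in 3 of the 12 (23.1% of their promoters) and in 4.36% of the 32851 promoters. It also stood in the NRF2 and glutathione genes called lower (3 of 13, or 23.5% of their promoters). The promoters of Hmgcs1 (chr13:119690101-119690400, plus strand), Msmo1 (chr8:64733529-64733828, minus strand) and Idi1 (chr13:8885356-8885655, plus strand) are shown 5′ to 3′ to set a pair with these letters beside one without them, with TCACNCCA and CCAAT or ATTGG in capitals. In Hmgcs1 the element starts 137 bases before the start site, and in Msmo1 177 bases before it. No match says only that these letters are not in this window.
Hmgcs1: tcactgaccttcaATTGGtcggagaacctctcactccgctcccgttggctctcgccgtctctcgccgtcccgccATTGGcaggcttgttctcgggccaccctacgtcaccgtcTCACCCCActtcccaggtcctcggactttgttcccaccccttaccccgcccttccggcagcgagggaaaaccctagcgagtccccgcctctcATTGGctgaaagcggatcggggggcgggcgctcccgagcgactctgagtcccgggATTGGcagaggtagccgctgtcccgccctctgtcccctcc
Msmo1: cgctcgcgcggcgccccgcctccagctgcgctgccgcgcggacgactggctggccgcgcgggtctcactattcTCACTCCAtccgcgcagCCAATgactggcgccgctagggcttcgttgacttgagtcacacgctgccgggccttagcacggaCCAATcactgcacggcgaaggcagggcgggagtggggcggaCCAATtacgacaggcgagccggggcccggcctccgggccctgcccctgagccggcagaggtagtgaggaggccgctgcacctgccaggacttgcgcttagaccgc
Idi1: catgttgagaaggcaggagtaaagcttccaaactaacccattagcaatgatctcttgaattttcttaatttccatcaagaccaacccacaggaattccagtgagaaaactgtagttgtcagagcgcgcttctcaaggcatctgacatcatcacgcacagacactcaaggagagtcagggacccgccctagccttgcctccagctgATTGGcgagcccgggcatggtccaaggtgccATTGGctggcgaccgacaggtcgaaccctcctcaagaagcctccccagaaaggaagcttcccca

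Fatty acid synthesis genes rose in part. Of 20 measured on all 4 arrays, 8 rose and 2 fell, with a median of 0.40. The stearoyl-CoA desaturase genes Scd2, from 3.92 and 3.98 to 5.96 and 6.88 (2.47, SE 0.32, adjusted p = 0.00514), and Scd1 (2.03, SE 0.38) rose, as did the desaturase Fads1 (1.74, SE 0.36) and Fasn, the fatty acid synthase (1.47, SE 0.22). Acacb (-1.44) and Elovl1 (-0.72) fell, and Elovl1 stood at 0.56 relative to E1A. Srebf1, whose product drives fatty acid synthesis, stood at -0.026 (adjusted p = 0.928). Averaging the controls left 2 calls, Scd2 and Fasn. Leaving out either control array left 2 as well, against 8 without no.2 replicate 1 and 6 without no.2 replicate 2.

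**Figure D4:**
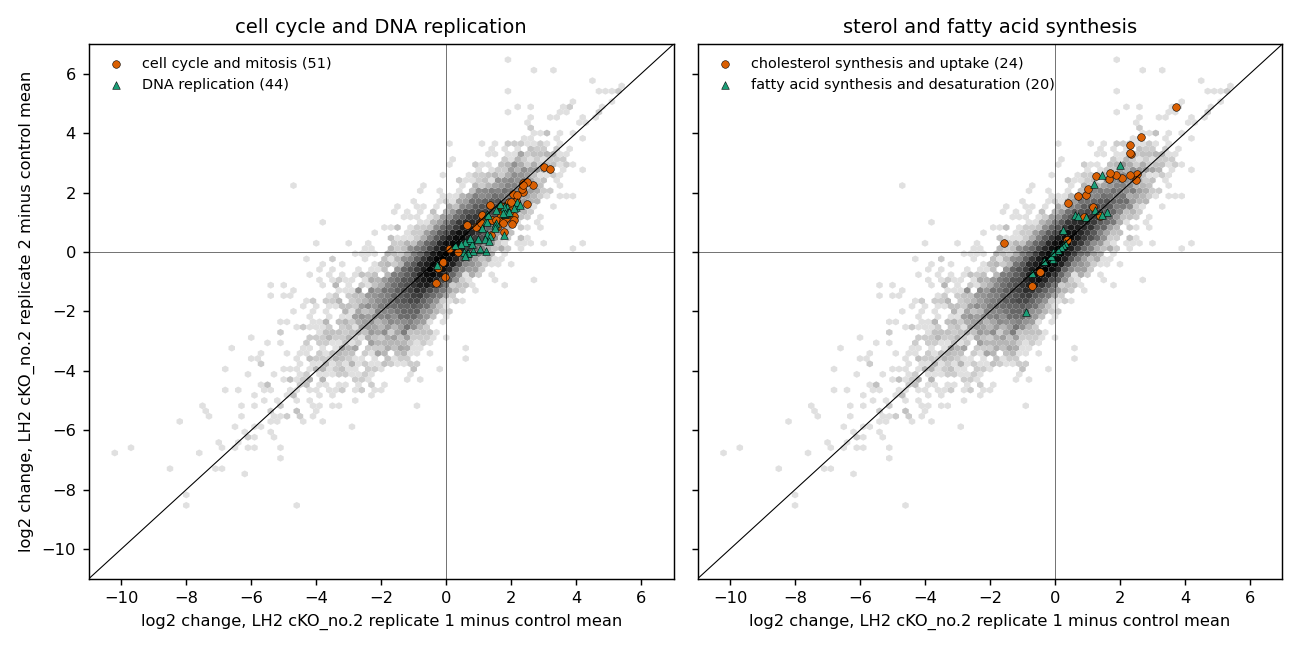
Log2 change of each tested gene on the first no.2 array (x axis) and the second (y axis), each minus the control mean, as grey hexagons on a log density scale. Coloured marks are the members measured on all 4 arrays of the cell cycle (51) and DNA replication (44) lists at left and of the cholesterol (24) and fatty acid (20) lists at right. Most replication genes lie below the diagonal, nearer to the first array's side, and most cholesterol genes above it.

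Proteases that turn over the matrix and their inhibitors stood mostly lower. Of 26 members measured on all 4 arrays 11 fell and 4 rose, with a median of -1.04. The inhibitors Timp1, from 8.86 and 8.88 to 6.93 and 6.12 (-2.34, SE 0.30, adjusted p = 0.00528), Timp3 (-2.26, SE 0.23) and Timp2 (-1.46, SE 0.19) fell. All no.2 values of these inhibitors lay below control. Adamts1 (1.81) and Plau, urokinase (0.98), rose. The collagenase gene Mmp13 read 0.11 and 0.31 in control, and its no.2 arrays lay on either side, at -1.05 and 1.46. Mmp2 (0.87, adjusted p = 0.0659) and Mmp14 (0.57, adjusted p = 0.108) did not pass. Averaging the control arrays left 7 falls and 0 rises, and leaving out the 4 arrays in turn gave 9, 7, 10 and 10 falls and 0, 0, 5 and 1 rises. Relative to E1A 4 members fell and 7 rose.

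Genes of fibronectin and of matricellular proteins, the latter modulating adhesion without building fibres, changed both ways. Of 22 measured on all 4 arrays 6 rose and 6 fell. Tnxb, tenascin X (-3.29, SE 0.31, adjusted p = 0.0022), and Ccn5 (-3.38, SE 0.78, adjusted p = 0.0232) fell, and Tnc, tenascin C, fell from 3.79 and 3.70 to 2.03 and 0.63 (-2.41, SE 0.47). Sparc fell by 0.92 (SE 0.18) and stood at 0.37 relative to E1A. Fn1, fibronectin, rose from 6.70 and 6.73 to 7.92 and 8.06 (1.27, SE 0.18, adjusted p = 0.00698). Ccn4 (2.46, SE 0.29), Tgfbi (2.76, SE 0.75) and Postn, periostin (1.37, SE 0.28), rose too. Ccn4 and Tnxb passed with averaged controls. Without no.2 replicate 2 the counts were 4 and 3, and without either control array 1 and 1.

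In the elastic fibre and microfibril list 2 of 19 members rose and 6 fell. Fbn2, the fibrillin of development, rose from -1.15 and -1.35 to 1.21 and 1.58 (2.64, SE 0.31, adjusted p = 0.00419), whereas Fbn1 stood at -0.52 without passing. Emilin2 (-3.12, SE 0.37), Mfap5 (-2.51, SE 0.38), Ltbp2 (-1.99, SE 0.23) and Efemp2 (-1.98) fell, and with the control arrays averaged these 4 falls and the rise of Fbn2 passed.

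Filopodia are thin actin protrusions, and the series' title names them. Their assembly genes moved little as a group. Of 35 members measured on all 4 arrays 7 rose and 2 fell, with a median of 0.23. Eps8, which caps and bundles actin, read 1.27 and 1.34 in control and 3.56 and 3.55 in no.2, well apart (2.25, SE 0.28, adjusted p = 0.00464), and its other probe gave 0.88. Myo10, the motor of filopodial tips, rose from 0.54 and 0.83 to 1.93 and 2.51 (1.54, SE 0.30, adjusted p = 0.0146), with 0.64 from its other probe. Wasf1 (1.55, SE 0.20) and the bundling protein gene Fscn1 (1.18, SE 0.32, adjusted p = 0.0347) rose, and Cdc42ep5 (-1.05) and Diaph2 (-0.85) fell. The small GTPase Cdc42 was at 2.79 and 2.94 in control and 3.01 and 3.12 in no.2 (0.20, SE 0.21, adjusted p = 0.488). Averaging the controls left Eps8 and Wasf1, and leaving out the 4 arrays in turn gave 2, 2, 6 and 4 rises. Relative to E1A 32 of the 35 were called higher, where 67.8% of all genes so measured were, and Cdc42ep5 (0.23) and Diaph2 (0.43) stood above 0.

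Among integrins and focal adhesion genes 1 of 23 rose and 5 fell, against 11.2% and 17.7% of all genes so measured. Itga3, a laminin receptor chain, rose from -1.14 and -0.80 to 1.85 and 0.84 (2.31, SE 0.36, adjusted p = 0.00856), and Itgb3, of the vitronectin receptor, fell from 1.56 and 1.66 to -0.78 and -1.43 (-2.71, SE 0.31, adjusted p = 0.00397). A second Itga3 probe above background on all 4 arrays went the other way (-1.08), and with the mean over probes Itga3 stood at 0.62 and did not pass. Itga3 and Itgb3 passed with the control arrays averaged, and the falls of Tln2 (-1.41, with -0.73 from its other probe) and Tns1 (-1.34) did not. Itgb1 (-0.062) and Itgav (0.35) did not pass. Of 19 contractile and myofibroblast genes, nonmuscle myosin Myh10 rose (2.31, SE 0.21, adjusted p = 0.00195), and Mylk fell by its 2 probes above background on all 4 arrays (-1.35 and -1.27), while another, dimmer probe gave 3.57. Acta2, smooth muscle actin, stood at 0.27 (adjusted p = 0.49) and Tagln at -0.49 (adjusted p = 0.262). YAP and TAZ target genes were called both ways, 3 higher and 3 lower of 24, with a median of 0.013. Ankrd1 and Tgfb2 (2.30, SE 0.28) passed with the control arrays averaged, while Ccn1 (-0.22) and Ccn2 (-0.95) did not pass in either fit.

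Guidance cues and receptors, which steer migrating cells, were called 7 higher and 9 lower of 40, against 11.2% and 17.7% of all genes so measured, with a median of -0.19. Sema3c, a secreted semaphorin, fell from 3.82 and 3.74 to 0.089 and 1.09 (-3.19, SE 0.43, adjusted p = 0.00593), and Slit3 (-2.64, SE 0.33), Ntn4 (-2.26, SE 0.36) and the receptor Plxna2 (-2.20, SE 0.37) fell. These 4 passed with the control arrays averaged. Without the first and second control array 1 and 1 rose and 3 and 4 fell.

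In the IGF system 3 IGF-binding protein genes stood lower, with Igfbp6 going from 7.76 and 7.86 to 4.47 and 3.82 (-3.67, SE 0.39, adjusted p = 0.00303), Igfbp4 from 4.78 and 4.89 to 1.60 and 1.19 (-3.44, SE 0.22, adjusted p = 0.000725) and Igfbp2 to below background on both no.2 arrays. Igfbp7 (0.17, adjusted p = 0.616) and Igf1 (-0.42) did not pass. The scavenger receptor Igf2r rose from 1.81 and 1.79 to 3.95 and 4.42 (2.38, SE 0.22, adjusted p = 0.00224), and the adaptors Irs1 (1.28) and Irs2 (1.79) rose. Of 15 members measured on all 4 arrays 6 rose and 3 fell, and with the control arrays averaged Igf2r and the 3 falls, Stc2 being the third (-2.68, SE 0.24), passed.

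Of 36 TGF-beta and BMP genes 7 rose and 8 fell, against 11.2% and 17.7% of all genes so measured, with a median of 0.021. Among ligands, Inhbb, the activin B chain, fell from 5.16 and 5.18 to 0.67 and 1.32 (-4.18, SE 0.40, adjusted p = 0.00234) and Tgfb2 rose. Among receptors, Acvrl1 (-2.94, SE 0.19) and its partner Eng (-2.50, SE 0.18) fell and Tgfbr1 rose (1.85). Of the antagonists, Fst rose (1.94). Averaging the controls left 2 rises and 4 falls, and without the first control array 2 and 5. In Wnt signalling 3 of 22 members measured on all 4 arrays rose and 5 fell, against the same 11.2% and 17.7%. Ror2, a receptor for Wnt5a (-1.72, SE 0.19, adjusted p = 0.00343), was the 1 that passed with the control arrays averaged. Dkk2 (-1.84, SE 0.49) and Fzd1 (-1.28, SE 0.26) fell, and Fzd1 stood at 0.0031 relative to E1A.

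Chemokines and cytokines fell in larger number than they rose. Of 23 measured on all 4 arrays 11 fell and 2 rose, with a median of -1.42. Besides Rarres2 and Ccl8, Il34 (-2.44), Il33 (-2.19), Ccl7 (-2.03, SE 0.38) and Cxcl1 (-1.42, SE 0.22) fell. Ccl11, eotaxin, read 4.84 and 4.81 in control and -4.84 and -1.72 in no.2, and was well above background on 1 of 2 no.2 arrays, as was Cxcl14 at 4.22 and 4.29 against -4.17 and -2.97. Ccl2 (-1.16, adjusted p = 0.0505), Ccl5 (-1.47, adjusted p = 0.101) and Il6 (-0.014, adjusted p = 0.985) did not pass. The rises were of Cx3cl1, from 1.55 and 1.83 to 4.92 and 4.21 (2.87, SE 0.28, adjusted p = 0.00245), and of Cxcl12, the ligand of CXCR4, from 2.54 on both control arrays to 4.70 and 5.58 (2.60, SE 0.31, adjusted p = 0.00428). With the control arrays averaged 5 falls and both rises passed, the same numbers as without either control array, and relative to E1A 3 members fell and 7 rose.

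Complement genes were called 3 higher and 3 lower of 13. C2, a component of the classical convertase, fell from 6.06 and 6.04 to -1.54 and 0.89 (-6.38, SE 0.75, adjusted p = 0.00418), and Cfb, its alternative-pathway counterpart, from 6.37 and 6.42 to 1.20 and 3.37 (-4.11, SE 0.82, adjusted p = 0.016). The first no.2 array was the lower for both. Cfi, a protease that inactivates C3b, rose (1.81, SE 0.32). C3 (-0.80) did not pass. The 2 falls that passed with the control arrays averaged were those of Serping1 and C2. MHC class I genes fell in 6 of 20 cases and rose in 0, with a median of -0.95, among them H2-K1, from 9.89 and 9.96 to 7.73 and 8.50 (-1.81, SE 0.38, adjusted p = 0.0175), and H2-D1 (-1.90, SE 0.30). The 1 fall left with the control arrays averaged was H2-D1, leaving out the 4 arrays in turn gave 2, 1, 2 and 3 falls, quantile normalization gave 2, and relative to E1A 0 members fell and 2 rose.

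Type I interferon response genes were not called in no.2. Of 35 measured on all 4 arrays 0 rose and 0 fell in limma, 0 had an unadjusted p under 0.05 and 0 passed with the control arrays averaged, with a median of -0.049. The 2 of lowest p were Ifi27 (-0.98, SE 0.46, adjusted p = 0.142) and Ddx58, the RNA sensor RIG-I (0.90, SE 0.44, adjusted p = 0.154). These SEs pool the spread of all 6 arrays, the no.1 arrays included. Ddx58 read 4.63 and 4.59 in control and 5.44 and 5.58 in no.2, and its other probes gave 0.026, 0.90 and 0.48. Relative to E1A 3 of the 35 were called higher, against 67.8% of all genes so measured. Individual log2 fold changes ranged from -2.20 for Zbp1 to 1.46 for Oas3.

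NRF2 targets and glutathione enzymes, which detoxify oxidants and electrophiles, stood lower in part. Of 39 measured on all 4 arrays 15 fell and 0 rose, with a median of -0.60. Hmox1, heme oxygenase 1, went from 8.43 and 8.54 to 5.38 and 5.28 (-3.15, SE 0.24, adjusted p = 0.00123), and the extracellular superoxide dismutase Sod3 from 7.19 and 7.25 to 2.39 and 2.89 (-4.58, SE 0.43, adjusted p = 0.00224). On both genes the no.2 arrays lay together and far below control. Nqo1 fell by 1.57 (SE 0.21, adjusted p = 0.00586) and Mgst3 by 2.45 (SE 0.41). Gclm (-0.61, adjusted p = 0.0935), Gclc (-0.17), Cat (0.44) and Nfe2l2, which encodes NRF2 (0.15), did not pass. Averaging the control arrays left 6 falls, and leaving out the 4 arrays in turn gave 7, 6, 14 and 11, with 2 members called higher without no.2 replicate 1. Quantile normalization gave 12 falls and 2 rises. Relative to E1A 4 fell and 18 rose. The antioxidant response element, searched as TGACNNNGC on both strands, stood in promoters of 2 of 13 genes called lower and in 12.4% of all promoters.

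Hypoxia and glycolysis genes were called 12 lower and 3 higher of 37, with a median of -0.63. After Ndufa4l2, Aldoc fell most, from 2.66 and 2.80 to -1.40 and -0.95 (-3.91, SE 0.24, adjusted p = 0.000607), followed by Adm, adrenomedullin (-2.07, SE 0.38). Egln3, a prolyl hydroxylase that HIF induces, rose from -0.96 and -0.76 to 1.76 and 0.86 (2.17, SE 0.32, adjusted p = 0.00739). Slc2a1 (-0.67), Ldha (-0.78) and Vegfa (-0.53) did not pass. Averaging the controls left Ndufa4l2, Aldoc and Egln3, and leaving out the 4 arrays in turn gave 3, 3, 21 and 8 falls.

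Abundant housekeeping transcripts moved with the scaling. Ribosomal protein genes were called lower in 10 of 56 cases (17.9%, near the 17.7% of all genes) with a median of -0.50. Relative to E1A 37 of the 56 were called higher, near the 67.8% of all genes so measured. Rps18 went from 11.2 and 11.3 to 10.52 and 10.11 (-0.93, SE 0.21, adjusted p = 0.0226), and stood at 0.35 relative to E1A and 0.0079 after quantile normalization. Respiratory chain genes were called lower in 11 of 45 cases, against the same 17.7%, with a median of -0.50. Relative to E1A 27 were called higher, against the same 67.8%. Uqcrq, a subunit of complex III, fell most (-1.63, SE 0.26, adjusted p = 0.00888) and stood at -0.35 relative to E1A. After averaging the controls 0 genes of either list were called, where without no.2 replicate 1 29 ribosomal and 20 respiratory genes were called lower.

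Lysosome genes fell in 8 of 34 cases and rose in 1 (Ids, 1.18, SE 0.27), against 17.7% and 11.2% of all genes so measured. The progranulin gene Grn fell from 10.0 and 10.3 to 8.37 and 7.65 (-2.18, SE 0.28, adjusted p = 0.00546), and its other probes gave -0.48 and -0.98. The protease Ctsh fell next to it (-2.10, SE 0.18, adjusted p = 0.00187). The falls of Grn and Ctsh were the 2 left with the control arrays averaged. Of 31 p53 targets 3 rose and 7 fell, against the same 11.2% and 17.7%. Gdf15, a stress cytokine, fell from 4.48 and 4.62 to 0.55 and -0.62 (-4.59, SE 0.38, adjusted p = 0.00168), the 1 call left with averaged controls, and Sesn1 rose (1.54, SE 0.29). In the unfolded protein and integrated stress response list 1 of 30 rose and 5 fell, no more than the 11.2% and 17.7% of all genes so measured. The falls included Ddit3, CHOP (-1.55, SE 0.40), and Vldlr (-1.56, SE 0.20), the latter being the 1 left with averaged controls. Hspa5, the chaperone BiP, stood at 0.35 without passing. Of 23 immediate early genes 2 rose and 4 fell, no more than the same 11.2% and 17.7%, with a median of -0.27. Among them Klf2 (-2.47, SE 0.19) and Maff (-2.02, SE 0.22) fell and passed with averaged controls, while Fos (1.14) rose and did not pass there.

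Genes linked to tamoxifen's own targets were also examined, since tamoxifen binds the estrogen receptor. Of 13 estrogen-responsive and xenobiotic genes measured on all 4 arrays 1 rose and 3 fell. Cyp1b1, a cytochrome P450 induced by the aryl hydrocarbon receptor, rose from -1.26 and -0.96 to 1.62 and 1.85 (2.84, SE 0.25, adjusted p = 0.00198), while Tiparp, another target of that receptor, fell (-0.96, SE 0.18, adjusted p = 0.0144). The largest fall was that of Igfbp4 (-3.44), described with the IGF system, and it passed with averaged controls. The falls of Ctsd (-1.33, SE 0.23) and Tiparp did not pass with averaged controls, and Tiparp stood at 0.32 relative to E1A. The part of tamoxifen in these values was not tested. Circadian clock genes fell in 4 of 16 cases and rose in 0, against 17.7% and 11.2% of all genes so measured. Dbp, an output gene of the clock (-1.42, SE 0.19, adjusted p = 0.00584), was the 1 left with averaged controls. Nr1d1 (-1.43, SE 0.40), Cry2 (-1.22, SE 0.21) and Cry1 (-0.68, SE 0.18) were the others, and Cry1 and Cry2 turned to 0.61 and 0.063 relative to E1A.

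Hox genes keep the positional identity of fibroblasts, with group 13 genes marking the tail end. Hoxb13 was at 7.05 and 7.19 in control and at 4.74 and 4.84 in no.2, and it fell 5.01-fold (-2.33, SE 0.19, adjusted p = 0.00161). Hoxa13 was at -0.71 and -0.50 in control and well above background on 0 of 2 no.2 arrays. Hoxc13, however, rose from 0.65 and 0.70 to 1.99 and 2.39 (1.51, SE 0.23, adjusted p = 0.00766). Of 22 Hox genes measured on all 4 arrays 10 rose and 2 fell, with a median of 0.66, and the other rises were led by Hoxc4, from -2.27 and -2.40 to 0.34 and 0.37 (2.69, SE 0.28, adjusted p = 0.003), Hoxc11 (2.18, SE 0.20) and Hoxc6 (1.64, SE 0.31). With normexp the Hoxc4 log2 fold change was 0.70. Averaging the controls left Hoxc4, Hoxc11 and Hoxb13, and leaving out the 4 arrays in turn gave 3, 3, 9 and 7 rises.

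Fibroblast identity genes were called 8 lower and 3 higher of 20, with a median of -0.80. Thy1, a surface marker of fibroblasts, fell from 8.56 and 8.51 to 6.71 and 6.54 (-1.91, SE 0.18, adjusted p = 0.00239), and Twist2 from 5.70 and 5.72 to 3.80 and 2.60 (-2.51, SE 0.41, adjusted p = 0.00965). Pdgfra fell by 1.08 (0.21 relative to E1A) and Vim, vimentin, stood at -0.087 without passing. Averaging the controls left 4 falls and 0 rises, and relative to E1A 2 members fell and 8 rose. The signals of the 10 fibroblast markers, each over the array's 75th percentile, summed to 4932 and 5230 in control and to 2172 and 2572 in no.2, and S100a4, which fell (-1.65, adjusted p = 0.00777), made up most of the control sums.

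Markers of other cells were at or near background for the most part. Ptprc and Adgre1 of leukocytes, Krt5, Krt14 and Cdh1 of keratinocytes, Cdh5 and Kdr of endothelium, Sox10 and Mlana of the melanocyte and Schwann lineages, Myod1 and Ckm of muscle, and Rgs5 of pericytes were well above background on 0 of the 4 arrays. On the same scale the summed signal of the 5 leukocyte markers, carried by Itgam and Csf1r, was 44.5 to 47.6 in control and 28.4 to 35.1 in no.2. That of the 5 keratinocyte markers, carried by Trp63, was 9.92 to 10.4 and 9.03 to 10.6, and that of the 5 muscle markers, carried by Acta1, 15.2 to 16.7 and 14.9 to 18.6. Csf1r fell (-2.07, SE 0.41, adjusted p = 0.0152), with its other probe at -0.26, as did Dct (-1.44, SE 0.35), and neither passed with averaged controls. Among genes of tendon and cartilage, Scx, a tendon transcription factor, rose from 1.06 and 1.25 to 3.54 and 3.92 (2.57, SE 0.46, adjusted p = 0.0123) and Sox9 fell (-1.82, SE 0.47). Both calls were lost with averaged controls. Thbs4, Tnmd and Comp, products of mature tenocytes, were measured on both control arrays and on 1 of 2 no.2 arrays. Desmoplakin, Dsp, was at 0.24 and 0.22 in control and well above background on 0 of 2 no.2 arrays. Involucrin, Ivl, was at -2.51 and -2.17 in control and likewise on 0 no.2 arrays. Of 9 tested genes of the wider keratinocyte list 2 were called lower and 0 higher. Outside that list, suprabasin, Sbsn, had a log2 fold change of -5.01, and keratin 20, Krt20, was at least 21.1-fold lower. The part of other cell types in any result was not tested.

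**Figure D5:**
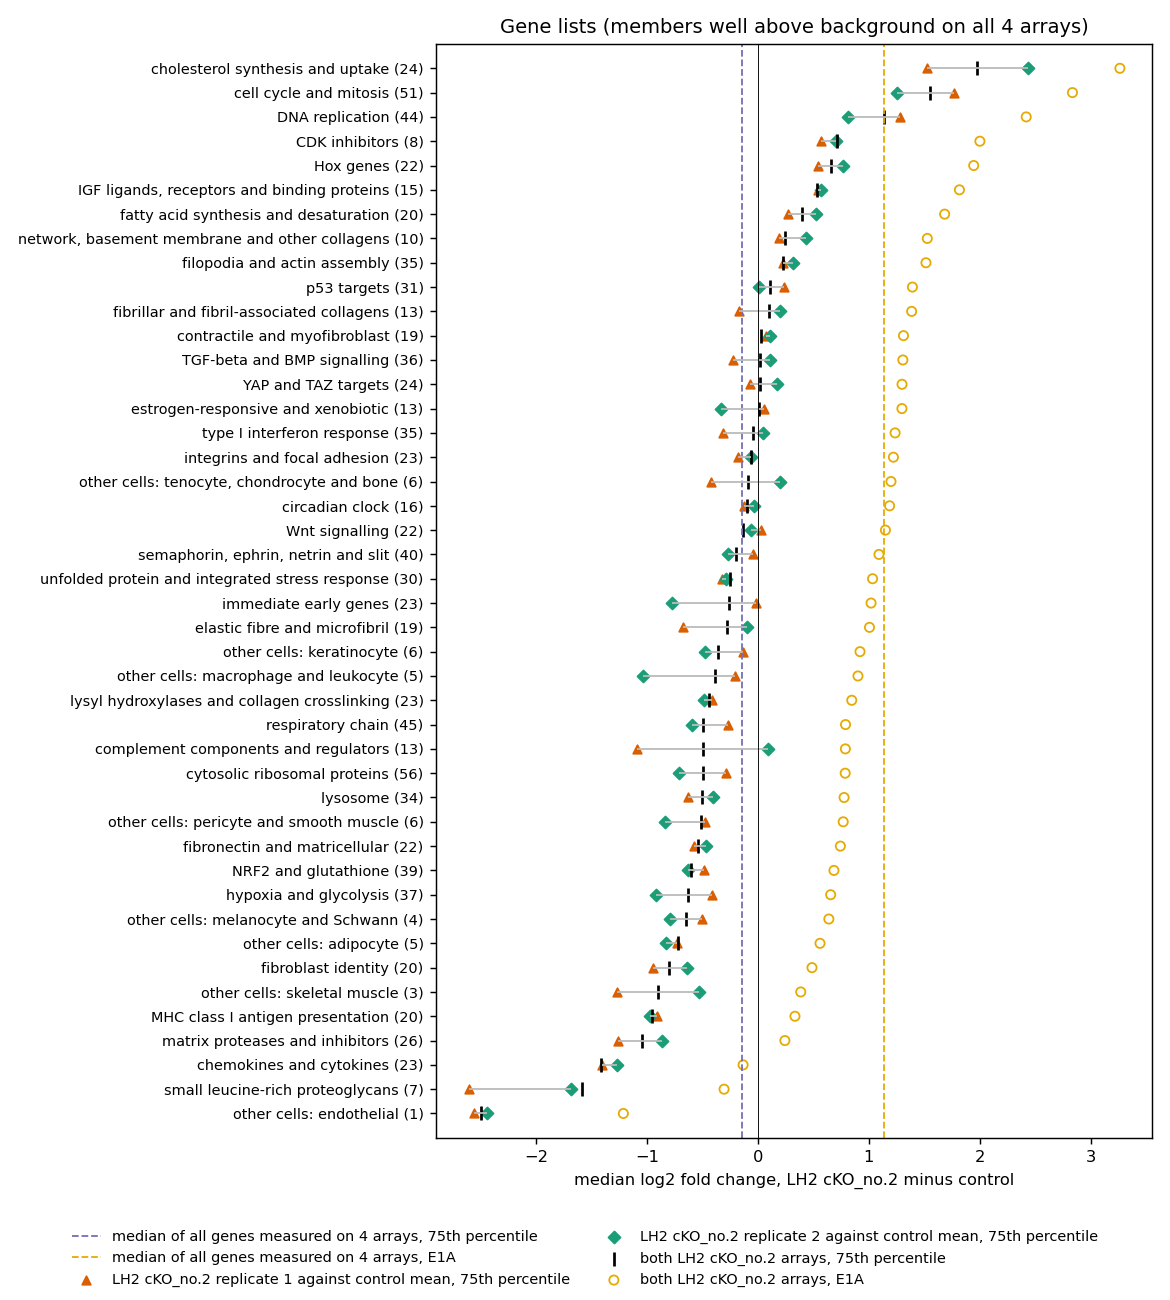
Median log2 fold change (LH2 cKO_no.2 minus control) of each of the 44 gene lists over its members well above background on all 4 arrays, with that number in parentheses. Black ticks are both no.2 arrays together, orange triangles and green diamonds the first and second no.2 array, all scaled to the 75th percentile. Yellow circles are both no.2 arrays with E1A scaling, where all but 3 lists lie above 0. These are chemokines (-0.13), leucine-rich proteoglycans (-0.31) and the endothelial list (-1.21), which here holds 1 gene, Eng. Dashed lines mark the medians over the 17917 genes, -0.15 and 1.14. Cholesterol (1.98) and cell cycle (1.55) lists lie highest.

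The control arrays also serve the other treated group, LH2 cKO_no.1, so the values against control stand side by side here and the test of the difference is no.2 against no.1 directly. Plod2 stood at -2.57 in no.2 and -2.13 in no.1, Idi1 at 4.30 and 4.78, Ccna2 at 3.0 and 4.16, Rarres2 at -7.08 and -8.70 and Cdkn1c at 4.72 and 2.23. The median of the cell cycle list was 1.55 in no.2 and 2.30 in no.1, that of the cholesterol list 1.98 and 1.66, that of the Hox list 0.66 and 0.55, and that of the interferon list -0.049 and -1.56. Between no.2 and no.1 limma called 0 of 21212 genes (0%), with 3760 at an unadjusted p under 0.05 and a smallest adjusted p of 0.244. Without no.1 replicate 2 it called 480. The no.2 arrays were not alike in size of change either. All 6793 called genes had the same sign on both no.2 arrays, with the larger change on the second array for 4321 and on the first for 2472. The calling itself favours genes of the same sign, so that count is no check of the replicates. For 594 of the 6793 the arrays differed by more than 1 on the log2 scale.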

How the data were processed

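RNA of 6 samples was hybridised to 1-colour Agilent arrays on 1 slide, in 3 groups of 2. The deposited scanner files hold the intensity of each spot, and gProcessedSignal, per the file headers, is background-subtracted. The headers give Feature Extraction 12.1.1.1 where the submitters' processing notes give 9.5.1.1. The deposited series table holds intensity too, and 99.9% to 100% of its values lie within 1% of quantile-normalized processed signal (column median 5.16 on every array). Its scale and centring were found from this match.

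Levels are log2 processed signals from which the 75th percentile of the array was taken away, averaged over a probe's spots. Each gene was read from its brightest probe and entered the test if that probe exceeded background on both arrays of control or both of no.2. Of 1027 called genes with more than 1 probe well above background on all 4 arrays, 99 had probes of opposite sign. Symbols came from RefSeq names of GRCm38.p6, matched to the transcript that the array files give for a probe, for 32994 of 56605 probes (58.3%). limma 3.58.1 in R 4.3.3 fitted the 3 groups over all 6 arrays (3 residual degrees of freedom), with Benjamini-Hochberg adjustment at 0.05. Bounds set the bright group's mean against the lowest signal well above background on each dim array. The code was tested on simulated data. 0 spots were saturated, and 0 value columns lacked a sample.

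Alternatives were E1A scaling, quantile and median scaling, normexp (offset 50, on median spot signals), the filter on dim probes, averaged controls, a replicate block and leaving out each array. The comparison and the 44 gene lists (1235 entries) were chosen with earlier results of these data known. The genes named are the Plod genes, the 15 largest changes each way, up to 4 called members of each list (or the 2 of lowest p) and up to 4 bounds each way. The 15 each way were taken among called genes measured on all 4 arrays whose groups did not overlap. Other genes named, the uncalled members included, were chosen after their values were seen. Some items that this rule takes are not reported here.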

Additional observations from a re-analysis of the deposited data

How the results depend on the processing

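The number of genes called in no.2 against control was 14802 with E1A scaling (14262 higher, 540 lower), 16549 with no filter on dim probes (13527 lower) and 1607 with the control arrays averaged (784 higher, 823 lower). Averaged controls with E1A scaling, an alternative chosen after seeing the data, gave 8915 higher and 336 lower. Scaling to the median probe gave 4914 higher and 2312 lower. Other settings stayed within 1.5 times of 6793. Leaving out 1 array gave 1705 to 6918 calls, 794 to 3009 higher and 911 to 4281 lower. The number of genes called, no.2 against no.1, was 8362 with no filter and 0 to 480 with 1 array left out. Plod2 ranged from -2.90 to -2.23 with 1 array left out, and at -1.28 it did not pass with averaged controls and E1A together. Replicate numbers did not pair control with no.2 or no.1 (correlations of deviations -0.024 and -0.047), and the value was 0.19 between no.1 and no.2. In these 2 groups the number goes with the 24 h or 48 h of the file name, which the main test of no.2 against no.1 leaves out. The fit with the replicate block called 6574 genes and ended 3 of 161 named calls.

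Of the 161 genes that the naming rule takes, E1A scaling turned the sign of 22, at the same values with averaged controls: Plod1 0.59, Plod3 0.051, P3h4 0.044, Fzd1 0.0031, Fjx1 0.13, Cry1 0.61, Cry2 0.063, Rps18 0.35, Rpl19 0.41, Rplp2 0.41, Rplp1 0.42, Tiparp 0.32, Fabp4 0.24, Cd3e 0.19, Mitf 0.44, Myh11 0.45, Cox4i1 0.15, Ndufa7 0.22, Ndufb9 0.22, Ifi27 0.31, Ppp1r15a 0.011 and Sesn2 0.38. E1A scaling adds the same amount to every log2 fold change. Genes named outside the rule that fell by less than Fzd1 (-1.28), such as Vim (-0.087), thus stood above 0 relative to E1A. The text gives the E1A value for only some of them. Rps18 also turned to 0.0079 with quantile normalization and 0.0076 in the deposited table, and the mean over probes turned Cry1 to 0.48 and Mylk to 0.32. Averaged controls ended the call of 68 of the 161, leaving out the first or second control array 59 and 66, and leaving out no.2 replicate 2 35. The cause was not tested. Signal over background limits genes measured in 1 group to bounds.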
